A study of Homo sapiens with 20 samples.

Results

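Broad H3K4me3 domains of LNCaP cells, an established line of prostate cancer cells with luminal features, are described here from lists of enriched chromatin regions. They were chosen by merging the H3K4me3 regions of the 2 control siRNA libraries that overlapped by at least 1 bp on chromosomes 1 to 22 and X, and keeping merged regions that were present in both libraries and 5000 bp or wider. This gave 913 domains of 31150 merged regions present in both control libraries, and of 52605 merged regions in all. The other 30237 regions present in both libraries are called narrower regions. Since the members were selected on their control H3K4me3 width, their widths and the comparison of widths between treatments are given as descriptions without a test.

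LNCaP cells were transfected with 20 nM of a pool of non-targeting siRNAs (control siRNA) or of a pool of siRNAs against CTCF (CTCF siRNA), and chromatin was taken at 144 h, after a second round of transfection. H3K4me3, H3K27ac and CTCF were each measured by ChIP-seq (chromatin immunoprecipitation followed by sequencing) in 2 libraries per treatment, 12 libraries in all. IMR90 cells, a line of fetal lung fibroblasts, were treated with the same siRNAs for the same time, and their 4 CTCF libraries made with the standard protocol were used to look up the CTCF sites of the domains. The methods call the 2 libraries of a group biological duplicates, the labels do not say what separates them, and each siRNA pool is 1 reagent.

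H3K4me3 is laid down by the SET1 and MLL families of methyltransferases around the start sites of active genes, where it usually forms a narrow block over the promoter. Blocks that reach far into the gene body are known for genes of high and steady transcription, among them regulators of cell identity and tumour suppressors. H3K27ac marks active promoters and enhancers. CTCF is a zinc finger protein that binds a long DNA motif and, with the cohesin ring, holds the ends of chromatin loops, so that sites inside a broad block of active chromatin are of interest when CTCF is depleted.

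The H3K4me3 lists held 36492 and 48462 regions in control cells, against 41107 and 59774 with CTCF siRNA. Those of H3K27ac held 86949 and 69949 regions in control cells, against 94415 and 98973 with CTCF siRNA. CTCF peaks numbered 37969 and 46293 in the control libraries but 3711 and 7716 with CTCF siRNA, which is the check of the knockdown that these lists allow. The lists hold no read counts, so no depth is attached to a region, and a peak that is absent is one that was not called. The reporting summary lists fewer sequenced reads for the first CTCF siRNA library of CTCF than for any of the other LNCaP libraries of CTCF. Without that library, the number of domains with a CTCF peak fell by 242 from the control mean to the other CTCF siRNA library. What part depth had in the share of sites that kept a peak was not tested. The starts of marker genes were set beside the labelled cell type. A region of both control libraries covered a start of 20 of 20 prostate luminal transcription factors and 11 of 12 luminal epithelial markers, beside 3 of 8 basal prostate markers, 3 of 9 neuroendocrine markers, 2 of 13 fibroblast markers and 0 of 10 blood cell markers. Over all protein-coding genes, 64.5% had a start in such a region. The gene lists were drawn up with results of these data known, so the counts are no independent check of the label.

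CTCF sites inside the domains are shown first, since they carry the main contrast between the treatments. A control site is a merged CTCF peak present in both control libraries, a persistent site is a control site that CTCF siRNA left with a peak in each of its 2 libraries, and every other control site is called lost. The sequences below are reference sequence of GRCh37 (hg19) at the best match to the CTCF consensus motif within 100 bp of the summit. They are read in the direction of the motif, with the 14 bases of this best match in capitals and 8 on each side. The first group holds 5 of the 6 persistent sites inside domains whose mean fold enrichment in control cells was 5 or more. The sites at RGMB and RPL26 were named by rule and the 3 others after their values were seen.
RGMB persistent, chr5:98107424-98107453, minus strand: ttttcctaTCAATAGAGGGCGTcctcgagt
RPL26 persistent, chr17:8286626-8286655, minus strand: cctcctagCCACTAGGTGACACtagccata
RPL23A persistent, chr17:27054004-27054033, plus strand: gctcctagCCACTAGGTGTCAGcctgccct
RPL32 persistent, chr3:12883364-12883393, minus strand: tcttctgaCCACTAAGAGGCGCacttcgga
LSP1P5 persistent, chr2:91815197-91815226, plus strand: gagcgcaaCCAGCAGGGGGCGCtggcgtct

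The 3 lost sites of highest fold enrichment inside domains are the counterpart. They lay in the domains of RFX7 and TEX9, of TNS2 and of RGMB, so that RGMB held both a strong persistent and a strong lost site.
RFX7/TEX9 lost, chr15:56538376-56538405, plus strand: cccagcagCCACTAGAGGGCTCacgaagct
TNS2 lost, chr12:53447605-53447634, plus strand: atgctggaGCAGGAGGGGGAAGcaggtagc
RGMB lost, chr5:98103970-98103999, minus strand: cgctagagGCAGCATAGGGCAGtgtaaaga
Mismatches to the consensus numbered 3 at the persistent RGMB site, 2 at RPL32, 1 at RPL26 and RPL23A, and 0 at LSP1P5. Among the lost sites there were 1 at RFX7/TEX9, 3 at TNS2 and 2 at RGMB. The count of mismatches therefore overlapped between these persistent and lost sites. With 3 mismatches, the persistent RGMB and the lost TNS2 stretches exceed the 2 allowed for a motif match in the search below.

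The domains ranged from 5000 to 57550 bp, with a median of 5800 bp and quartiles of 5300 and 6650 bp. Most were just past the limit, since 514 of them were narrower than 6000 bp and 58 were 10000 bp or wider. Region ends in these lists lie on a 50-bp grid. Exactly 44 domains measured 5000 bp, among them those at HIPK1, at SMG5 and TMEM79, and at PRCC on chromosome 1, and 42 regions measured 4950 bp, among them those at PRKD2 on chromosome 19 and at MCM3AP and YBEY on chromosome 21. The distribution therefore has no gap at the limit.

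Most of the widest members were near assembly gaps. Of the 12 widest, 9 lay within 1 Mb of such a gap, a run of 1 Mb or more without reference sequence, as at centromeres, on chromosomes 2, 4, 10 and 21, and none of these 9 held the start of a protein-coding gene. The widest, chr21:10772201-10829750, measured 57550 bp and 57150 bp in the control libraries. Near such gaps lay 69 of the 913 domains, of which 14 were on chromosome 10 and 13 on chromosome 21. Their median width was 7300 bp, against 5750 bp for the 844 others, and 2 of them held the start of a protein-coding gene. These sequences hold many repeats, and the authors discarded reads that mapped to several places. What part the reference sequence had in these widths was not tested, so the main results are also given without the domains near gaps.

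**Figure D1:**
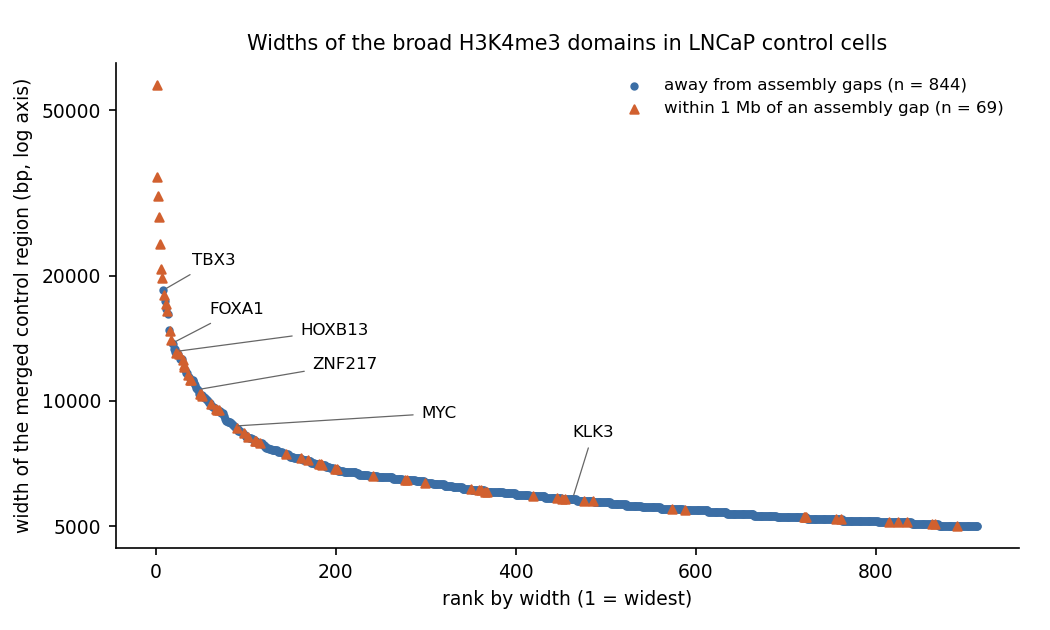
Width of each of the 913 broad H3K4me3 domains (vertical axis, bp, log scale) against its rank (horizontal axis, 1 for the widest); triangles are the 69 domains within 1 Mb of an assembly gap and circles the 844 others. The widest members are triangles up to 57550 bp, TBX3 (18450 bp) is the widest circle, and the curve flattens towards 5000 bp.

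Away from gaps, TBX3, a T-box transcription factor, had the widest domain, chr12:115105251-115123700, with a region of 18450 bp in both control libraries, 9350 bp in CTCF siRNA replicate 1 and 18550 bp in replicate 2. The replicates after CTCF siRNA thus disagreed at this gene, 1 of them splitting the block. FOXA1, a pioneer factor that opens chromatin for other factors, lay in a domain of 13750 bp (chr14:38056651-38070400) whose widest regions were 10850 and 10800 bp in control cells, against 10750 and 11200 bp with CTCF siRNA. HOXB13, a homeobox factor of the prostate, shared a domain of 13150 bp (chr17:46794801-46807950) with PRAC1 and PRAC2, which measured 13150 and 13050 bp in control cells, against 12900 and 13250 bp with CTCF siRNA. At FOXA1 and HOXB13 the values of the treatments overlapped.

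The other members of this group of 12 were of mixed kinds. NFIX, a nuclear factor I protein (16650 bp), NR2F2, an orphan nuclear receptor (13000 bp), KDM6B, which removes methyl groups from H3K27 (13300 bp), TNRC18 (13700 bp) and AMD1, which makes decarboxylated S-adenosylmethionine for polyamine synthesis (16150 bp), were protein-coding. MIRLET7BHG, the host transcript of let-7 microRNAs (14800 bp), and NEAT1, the long RNA of paraspeckles (12950 bp), were non-coding. The 2 remaining domains, on chromosome 2 at the pseudogene CDC27P1 (17400 bp) and on chromosome 16 at AC136932.1 (13350 bp), held no start of a protein-coding gene. At NFIX the control libraries themselves differed, with a widest region of 7600 bp in replicate 1 and 16650 bp in replicate 2.

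Most domains lay at genes. Starts of protein-coding transcripts lay in 765 of the 913 domains (83.8%), and in 763 of the 844 away from gaps (90.4%). Counting non-coding genes too, 811 domains held a start. A single protein-coding gene was found in 541 domains, 2 in 201 and 3 or more in 23, with at most 4, and in 194 domains the genes ran on both strands. Among the 541 with 1 gene, the median domain reached 1621 bp upstream and 4138 bp downstream of the most upstream start, and 88.5% reached further downstream. Regions of 2000 to 5000 bp with 1 gene had medians of 1130 bp upstream and 1916 bp downstream, and 89.0% of them reached further downstream. Domains and narrower regions were thus tilted to the gene body alike, and by these medians the larger part of the added width lay downstream of that start. Where a gene has several starts in a region, measuring from the most upstream of them adds length to the downstream side.

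Width went along with several features that the selection had not used. Leaving out regions near gaps, the share with the start of a protein-coding gene was 4.23% under 1000 bp, 72.1% from 2000 to 5000 bp, 91.0% from 5000 to 10000 bp and 77.1% at 10000 bp or wider. The median CpG count per 100 bp was 0.933 under 1000 bp, 1.17 from 1000 to 2000 bp and 3.72 from 2000 to 5000 bp, and it was 3.83 from 5000 to 10000 bp and 2.99 in the 35 widest. The median G and C content was 44.3% from 1000 to 2000 bp, 51.4% from 2000 to 5000 bp and 51.3% from 5000 to 10000 bp. The step in base composition thus lay at 2000 bp, and domains of 5000 to 10000 bp had medians close to those of regions of 2000 to 5000 bp. These are descriptions over regions, which are not replicates.

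**Figure D2:**
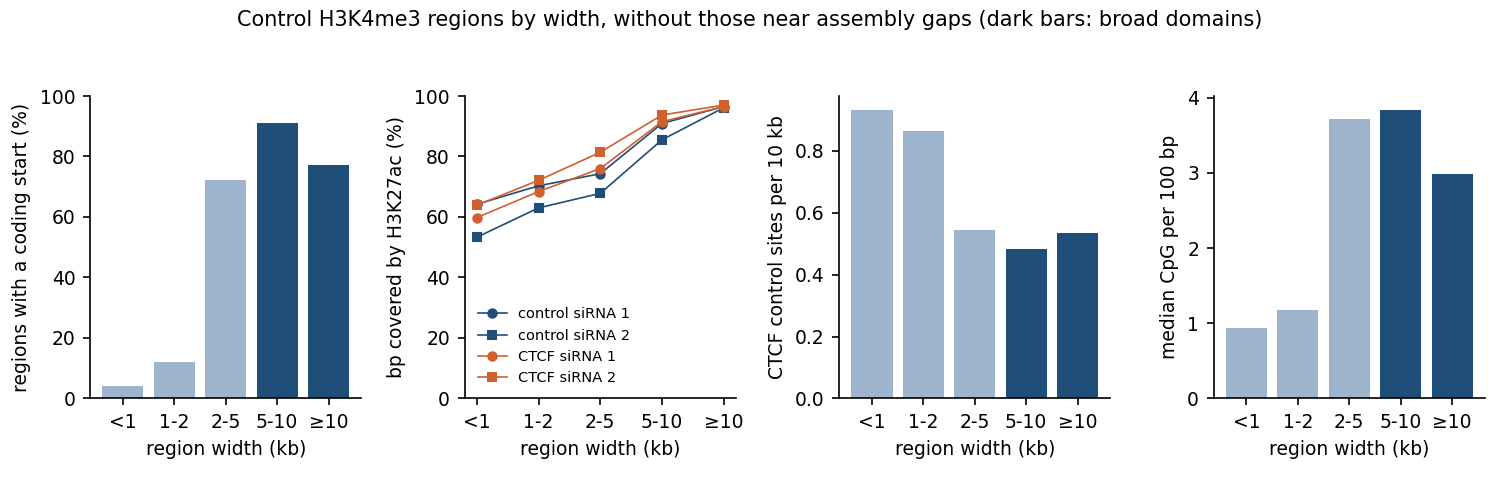
Control H3K4me3 regions away from assembly gaps in 5 classes of width (horizontal axes, kb), with dark bars for broad domains: share with the start of a protein-coding gene (%), bp covered by H3K27ac in each of the 4 libraries (%), CTCF control sites per 10 kb, and median CpG per 100 bp. H3K27ac cover climbs to at least 96.1% in every library in regions of 10000 bp or wider, while CTCF sites per 10 kb fall from 0.931 to between 0.484 and 0.544 from 2000 bp on.

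Genes of luminal prostate identity were among the members. Over all 19748 protein-coding genes, 1003 (5.08%) had a start in a domain, 11733 in a narrower region and 7012 in no region of both control libraries. Of the 20 prostate luminal transcription factors, 10 had a start in a domain, among them FOXA1, HOXB13, GRHL2, GATA2, ELF3, EHF, TBX3, ZNF217 and MYC, and the 10 others had one in a narrower region. The list was drawn up with results of these data known and is described by its counts only. GATA2, a zinc finger factor, had widest regions of 8450 and 8550 bp in control cells, against 8200 and 8750 bp with CTCF siRNA. MYC, the growth regulator, had 8500 and 7700 bp in control cells, against 7750 and 8200 bp with CTCF siRNA. In both the treatments overlapped.

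The remaining factors mostly had narrower domains. EHF, an epithelial ETS factor, lay in 2 domains, of 8300 bp and 6400 bp. Its second domain had widest regions of 4200 and 6400 bp in control cells, against 3400 and 5350 bp with CTCF siRNA. ELF3, another epithelial ETS factor, had 5700 bp, GRHL2, a grainyhead factor of epithelial cells, had 5750 bp, and ZNF217, a zinc finger oncoprotein, had 10650 bp. ELF3 had 5500 and 5550 bp in control cells, against 5300 and 6050 bp with CTCF siRNA, and ZNF217 had 9400 and 10650 bp, against 8250 and 10650 bp. The treatments overlapped at both and at the second EHF domain.

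Among androgen-induced genes, 7 of 24 had a start in a domain. KLK3, which encodes prostate-specific antigen, had a domain of 5800 bp (chr19:51357701-51363500) with widest regions of 5300 and 5800 bp in control cells, against 4950 and 6250 bp with CTCF siRNA. TMPRSS2, the serine protease that is often fused to ETS genes in prostate cancer, had 11250 bp, with 11050 and 10750 bp in control cells, against 7650 and 10300 bp with CTCF siRNA. C1orf116 and PFKFB2 shared 10200 bp, with 9950 and 10150 bp in control cells, against 7250 and 9800 bp with CTCF siRNA. Both CTCF siRNA values lay below both control values at TMPRSS2 and at C1orf116, and the groups overlapped at KLK3. ACSL3, a fatty acyl-CoA synthetase, had 4400 and 5550 bp in control cells, against 6300 and 6650 bp with CTCF siRNA, and NDRG1, a stress-responsive gene, had 4400 and 5100 bp and then 3300 and 3850 bp. PLPP1 (6500 and 9600 bp, then 6500 and 6600 bp) and the metalloreductase STEAP2 (5400 and 5450 bp, then 5600 and 5000 bp) overlapped between treatments. Members of this list therefore lay on either side of the control values.

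Other lists had starts in domains at the following counts, all beside 5.08% of all protein-coding genes and 7.88% of those with a start in any control region. Tumour suppressor genes had 11 of 31, including CDKN1B, ARID1A, KMT2D and SETD2. Immediate early and stress genes had 9 of 26, such as JUN, ATF3, IER2 and MCL1, and housekeeping genes had 8 of 29, such as GAPDH and EEF1A1. Luminal epithelial markers had 4 of 12, the tight junction genes CLDN4 and CLDN7 and the splicing regulators ESRP1 and ESRP2. Small RNA host genes had 6 of 29, including GAS5 and SNHG1, replication-dependent histone genes 12 of 64, ribosomal protein genes 13 of 80, and microRNA host genes 6 of 83, among them MIRLET7BHG, MIR22HG and MIR200CHG. Several of these lists are of genes that are active in most cells, so a start in a domain was not confined to prostate genes.

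Below the share of all protein-coding genes, zinc finger genes had 11 of 476 (2.31%), although 89.3% of them had a start in some control region, and HOX genes had 1 of 39, HOXB13. Of the genes that bear on the proteins and mark measured here, CTCF and cohesin genes had 2 of 13, STAG2, a cohesin subunit, and NIPBL, the cohesin loader. Writers and erasers of H3K4me3 had 2 of 15, the methyltransferases KMT2D and SETD1B. No basal, neuroendocrine, fibroblast or blood cell marker had a start in a domain.

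**Figure D3:**
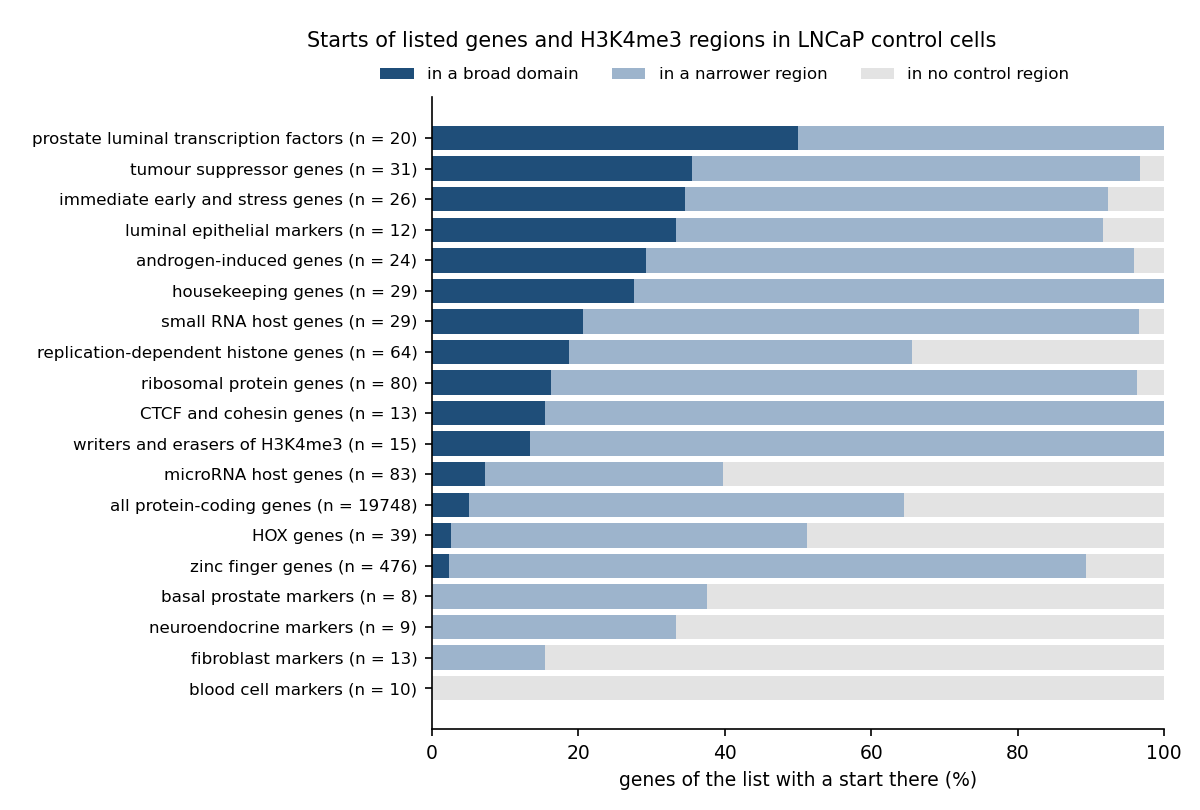
Share of the genes of each list (horizontal axis, %, with the number of genes in parentheses) that had a start in a broad domain, in a narrower region or in no region of both control libraries. Prostate luminal transcription factors have the longest dark bar (10 of 20), all protein-coding genes stand at 5.08%, and the 4 lists of markers of other cell types have none.

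After CTCF siRNA, every domain still had an H3K4me3 region in each library. The median widest region per domain was 5200 and 5650 bp in the control libraries and 5150 and 5750 bp in the CTCF siRNA libraries. The replicates of a treatment thus differed more than the treatments did, and replicate 2 had the longer list both times. Away from gaps the medians were 5200 and 5600 bp in control cells, against 5150 and 5700 bp with CTCF siRNA. A region of 5000 bp or more was found at 579 and 814 domains in control cells and at 521 and 766 after CTCF siRNA, and the regions covered 93.4% and 98.2% of domain bp in control cells, against 91.1% and 95.9% with CTCF siRNA. The mean widest region after CTCF siRNA had a median of 99.5% of the control, with quartiles of 95.6% and 104%. Taken singly, the CTCF siRNA libraries had medians of 95.5% and 103% (SD 5.39).

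The same rule applied to the CTCF siRNA libraries gave 1149 domains. Of the 913 control domains, 799 (87.5%) overlapped 1 of these, and of the 1149, 793 (69.0%) overlapped a control domain. Followed from the CTCF siRNA side, the widths in control cells had a median of 97.2%. Domains picked for their width in a treatment thus had a median below 100% in the other treatment, whichever treatment they were picked in.

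Both CTCF siRNA regions were narrower than both control regions at 113 domains (12.4%, beside 10.3% of all 31150 regions), and both were wider at 70 (7.67%, beside 14.7%). Away from gaps the counts were 102 and 66 of 844. Nothing is read from them, since control width chose the members. None of the domains lacked a region in both CTCF siRNA libraries, as 3.74% of all regions did, and the narrower regions without one were mostly under 2000 bp wide, with 8 of 13537 among those from 2000 to 5000 bp.

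The domains with the lowest relative width were of 2 kinds. DEXI and CLEC16A shared a domain of 6250 bp (chr16:11034201-11040450) in which the widest region was 5950 and 6250 bp in control cells, against 3000 and 3300 bp with CTCF siRNA. DHX32 and FANK1 shared 12650 bp (chr10:127574151-127586800), with 12500 and 12650 bp in control cells, against 7250 and 7350 bp with CTCF siRNA. In both, the block was 1 region in each control library and 2 regions in each CTCF siRNA library, which together still covered most of it (5750 and 6050 bp at DEXI, 12400 bp in both libraries at DHX32), and neither domain held a CTCF peak in any LNCaP library. The other members of this group held no start of a protein-coding gene. The lowest was near an assembly gap on chromosome 19 (2350 and 1050 bp, then 650 and 900 bp). The others were farther from gaps, on chromosome 16 (5050 and 4300 bp, then 2850 and 2700 bp) and at non-coding transcripts on chromosome 9 (4700 and 4750 bp, then 2450 and 3300 bp). Without domains near gaps, the fifth was in the gene body of YAP1, the Hippo pathway coactivator (3400 and 7000 bp, then 3150 and 3250 bp).

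At the other end, the highest relative width away from gaps was at RHOF and SETD1B, where 2 domains 50 bp apart in control cells were joined across that space by a region in each CTCF siRNA library. Their widest regions were 4850 and 7800 bp at the RHOF side and 6300 and 5950 bp at the SETD1B side in control cells, and the joint region measured 10250 bp in CTCF siRNA replicate 1, where the RHOF side also held a second region, and 14700 bp in replicate 2. The RHOF side held a CTCF control site (chr12:122232000-122233367, in an intron of RHOF) with fold enrichments of 38.3 and 35.6 in control cells and none with CTCF siRNA. OSBP, an oxysterol-binding protein (4000 and 5150 bp, then 6850 and 7850 bp), held no site, and CIRBP, a cold-inducible RNA-binding protein (3150 and 4900 bp, then 5900 and 6450 bp), held 1 lost site. An interval of chromosome 21 near a gap had the highest value of all, with 4350 and 3400 bp and then 9000 and 19150 bp. These widths are of whole regions, including parts outside the domain. Inside that interval, 4350 and 4800 bp were covered in control cells, against 4450 and 5100 bp with CTCF siRNA. The RHOF side had 7700 and 7800 bp covered, then 7150 and 8100 bp. The SETD1B side had 6300 and 5950 bp, then 5600 and 6400 bp. OSBP had 4000 and 5150 bp, then 5150 bp in both, and CIRBP 5450 and 5750 bp, then 5900 bp in both.

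Domains were also divided by their CTCF sites. Away from gaps, the 633 domains with no control site had a median relative width of 99.5%, the 204 with lost sites only 99.7%, and the 7 with a persistent site 99.5%. Both CTCF siRNA regions were narrower than both control regions at 12.5% of the first and 10.8% of the second group, and wider at 7.58% and 8.82%. The quartiles of the first 2 groups were 95.8% to 104% and 96.3% to 104%, so their ranges lay almost on top of each other.

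H3K27ac covered most of the domain sequence, though not of every domain. Summed over all domains it covered 88.5% and 84.4% of the bp in control cells, against 89.2% and 89.6% with CTCF siRNA. Narrower regions had 72.5% and 65.7% in control cells, against 72.8% and 77.5% with CTCF siRNA. Domains had more cover than narrower regions in every library. TBX3, FOXA1, HOXB13, KLK3 and TMPRSS2 were covered in full (100%) in all 4 libraries.

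Between treatments, the mean cover of the domains was 86.5% ± 2.85 (SD, n = 2) in the control libraries, against 89.4% ± 0.291 (SD, n = 2) with CTCF siRNA. The difference of 2.98 percentage points was near the spread between the control libraries, and the two-sided exact permutation test gave p = 0.333, the smallest that 2 libraries against 2 can give. It was 0.961 without control replicate 2, and the direction turned with wider limits, to -1.08 for domains of 7500 bp or wider and -2.54 for those of 10000 bp or wider. Away from gaps the cover was 91.4% and 86.3% in control cells, against 91.9% and 94.0% with CTCF siRNA, a difference of 4.10 percentage points (exact permutation p = 0.333). Near gaps it was 67.5% and 70.7% in control cells, against 69.7% and 58.2% with CTCF siRNA, which goes the other way by 5.19 percentage points with overlapping groups. The H3K27ac lists of CTCF siRNA had more regions than those of control cells, and with all 4 lists cut to equal length the difference over all domains was 2.00 percentage points (exact permutation p = 0.667).

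Per domain, H3K27ac cover was higher in both CTCF siRNA libraries than in both control libraries at 244 domains (26.7%, beside 18.8% of all regions and 30.4% of regions of 2000 to 5000 bp). It was lower at 25 (2.74%, beside 2.37% of all regions). Away from gaps it was higher at 238 of 844 domains (28.2%) and lower at 17. The first share was above that of all regions and below that of regions of 2000 to 5000 bp, and the second was near both. DEXI and CLEC16A, where the H3K4me3 block was called as 2 regions with CTCF siRNA, had 26.4% and 30.4% H3K27ac cover in control cells, against 48.8% and 55.2% with CTCF siRNA. NDRG1 had 63.7% and 54.9% and then 81.4% and 94.1%, and ACSL3 had 76.6% and 92.8% and then 100% in both. No H3K27ac was called in 4 and 5 domains in the control libraries and in 5 and 19 after CTCF siRNA, and 15 of the last 19 were near gaps.

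**Figure D4:**
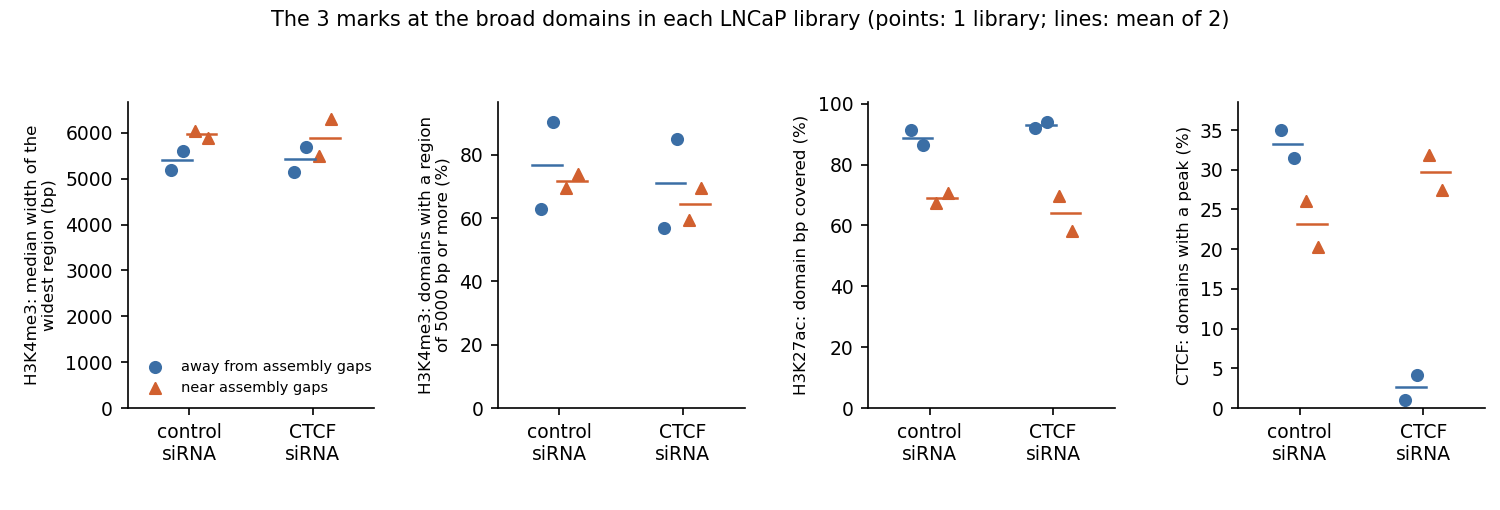
The 3 marks at the broad domains in each LNCaP library, as points with the mean of 2 libraries as a line, for the 844 domains away from assembly gaps (circles) and the 69 near them (triangles): median width of the widest H3K4me3 region (bp), domains with an H3K4me3 region of 5000 bp or more (%), domain bp covered by H3K27ac (%) and domains with a CTCF peak (%). H3K4me3 and H3K27ac values of the treatments lie close together, while CTCF peaks fall from 35.0% and 31.5% to 1.07% and 4.15% of the domains away from gaps.

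CTCF, the target of the siRNA, was the mark that changed most at the domains. Its whole lists fell from 37969 and 46293 peaks to 3711 and 7716, so the fall was not particular to the domains. At least 1 peak overlapped 313 and 280 domains in control cells, against 31 and 54 with CTCF siRNA. The means were 296 ± 23.3 (SD, n = 2) and 42.5 ± 16.3 (SD, n = 2) domains, a fall far larger than the spread between libraries (p = 0.333 in the exact permutation test, two-sided, the lowest that can be reached). Away from gaps the fall was from 295 and 266 to 9 and 35 of 844 domains. Near gaps the order was the reverse, with 18 and 14 of 69 domains in control cells, against 22 and 19 with CTCF siRNA. Of the 81 peaks that CTCF siRNA replicate 1 had in domains, 67 were near gaps, and the median fold enrichment of its peaks near gaps was 3.44, against 8.82 over its whole list.

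A CTCF control site lay inside 222 domains (24.3%, beside 13.6% of all regions), and inside 211 of the 844 away from gaps. Away from gaps, there were 0.484 sites per 10 kb from 5000 to 10000 bp and 0.534 at 10000 bp or wider. These were near the 0.544 of regions from 2000 to 5000 bp and below the 0.866 from 1000 to 2000 bp. A site counted from an overlap of 1 bp, which raises the rate most in short regions. The higher share of domains with a site thus went with their length. In all, 274 control sites lay inside domains, singly in 180 domains and as 2 to 4 sites in 42. A further 165 sites lay within 5 kb outside, at 153 domains, and 579 domains (63.4%) had a site neither inside nor within 5 kb.

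BCL6, a transcriptional repressor of the BTB zinc finger family, had the most sites of any domain, 4 in its introns within 8200 bp. All 4 were lost, and 1 of them had a peak in CTCF siRNA replicate 2. RGMB, a co-receptor of bone morphogenetic proteins, and the pseudogene CDC27P1 had 3 sites each, as did TNS2 and the domain at LSP1P5. FOXA1 and HOXB13 each held 1 site and TBX3 held 2, and none of these 4 sites had a peak after CTCF siRNA. MYC held 1 site, with fold enrichments of 12.7 and 20.7 in control cells and 9.69 in CTCF siRNA replicate 2 only, and KLK3 held none.

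Inside domains, 229 of 274 CTCF sites lost their peak in both CTCF siRNA libraries (83.6%, beside 78.6% of all 33377 control sites). Over all strengths, 17 of the 274 sites were persistent, which is 6.20% (95% Wilson interval 3.91 to 9.71%), beside 9.26% of all 33377 control sites, which lies inside that interval. In narrower regions, 493 of 4176 sites were persistent (11.8%, interval 10.9 to 12.8%), which lies above it. The intervals cover counting error only. The share in domains was 15.8% of 19 sites with lists of equal length, 16.4% for a peak in either CTCF siRNA library and 16.1% without CTCF siRNA replicate 1. It was 22.6% in domains of 10000 bp or wider. Of the sites in domains, 6.57% kept a peak in CTCF siRNA replicate 1 and 16.1% in replicate 2, beside 10.0% and 20.6% of all control sites. Without domains near gaps, 10 of 258 sites were persistent (3.88%, interval 2.12 to 6.99%), and among sites with a fold enrichment of 5 or more, 6 of 246 were (2.44%, interval 1.12 to 5.22%). The cut at 5 was not planned, and it left out 11 of the 17 persistent sites in domains. With this cut, 489 of 4038 sites in narrower regions (12.1%, interval 11.1 to 13.2%) and 9.47% of all sites outside domains were persistent.

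Sites of like strength were then set side by side. All control sites were ranked by mean control fold enrichment and divided in 4 classes of near equal size. In the top class (19.0 to 67.1), 3 of 48 sites in domains were persistent, or 6.25% (interval 2.15 to 16.8%), against 329 of 1053 in narrower regions, or 31.2% (28.5 to 34.1%), and 26.7% of all sites outside domains. The share in domains was the lower one in each CTCF siRNA library, with 8.33% against 34.7% in narrower regions for replicate 1 and 43.8% against 60.7% for replicate 2. Median fold enrichments were alike, 25.8 in domains and 24.4 in narrower regions. In IMR90 cells after CTCF siRNA, 87.5% of the same 48 sites and 86.1% of those in narrower regions had a peak in both libraries. In IMR90 the share in domains was thus near that in narrower regions and the 84.0% of top-class sites outside domains. The IMR90 lists held 35717 and 36887 peaks in control cells and still 19177 and 18533 with CTCF siRNA. In the top class, shares this high in every set leave little room for a difference to show. In classes 3, 2 and 1 (1 is the weakest), the IMR90 shares in domains were 62.1%, 37.7% and 4.67%. In narrower regions they were 60.6%, 29.6% and 9.49%, and outside domains 57.8%, 29.8% and 10.6%. The domains were also defined in LNCaP, so the 2 lines are not compared on this point. No test was made of these differences, since sites of a library are not replicates of a treatment.

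The sequence of the sites was searched too. A match to the CTCF consensus motif, with at most 2 mismatches on either strand within 100 bp of the summit, was found at 51.5% of the sites in domains, 62.8% of those in narrower regions and 74.2% of those outside domains. Windows 1000 bp away held a match in 11.3%, 6.63% and 5.19% of cases. Among sites of the top class with a match, 2 of 34 in domains were persistent (5.88%, interval 1.63 to 19.1%), against 34.3% of 863 in narrower regions. The share in domains was therefore also the lower one when all sites compared held a match. What part local background, which enters the fold enrichment, had in it was not tested.

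**Figure D5:**
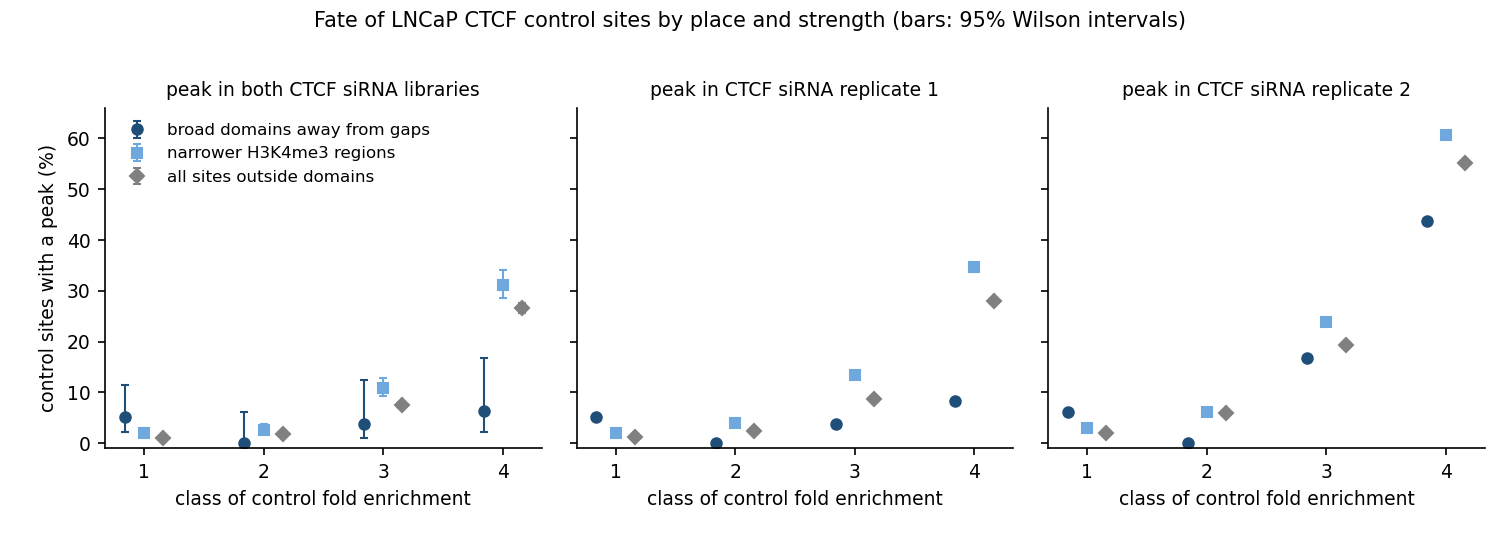
Share of LNCaP CTCF control sites (vertical axis, %) that kept a peak in each CTCF siRNA library (left, bars are 95% Wilson intervals), in replicate 1 (middle) and in replicate 2 (right), by class of mean control fold enrichment (horizontal axes, 4 is the strongest), for sites in broad domains away from assembly gaps, in narrower H3K4me3 regions and outside domains. In class 4 the sites in domains stand at 6.25%, below narrower regions at 31.2%.

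The 17 persistent sites in domains fell in 2 groups with nothing between. In the first, 11 sites had a mean control fold enrichment of 1.52 to 3.06, and 6 of them were near gaps. None of the 11 held a motif match or had a peak in both IMR90 control libraries, and in 10 of them the fold enrichment in CTCF siRNA replicate 1 was higher than in both LNCaP control libraries. They lay in 7 domains, among them the pseudogene intervals of ROCK1P1 on chromosome 18 (3 sites) and CDC27P1 on chromosome 2 (2 sites). In the lowest class of fold enrichment, 11 of 107 sites in domains were persistent (10.3%), against 1.90% in narrower regions.

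The second group held 6 sites, 5 of them with the sequences printed above, with mean control fold enrichments of 16.2 to 32.9. All 6 had a peak in each of the IMR90 control and CTCF siRNA libraries. A motif match with at most 2 mismatches was found at 5 of them, all but the RGMB site. Fold enrichment in LNCaP fell at all 6, from 28.1 and 37.8 to 8.28 and 8.79 at RGMB, for example. Each library has its own local background in this ratio, with no scaling across libraries. The RPL26 site had 24.8 and 29.1 and then 7.29 and 21.1, the RPL23A site 17.8 and 16.7 and then 8.79 and 13.3, and the RPL32 site 14.3 and 19.2 and then 6.60 and 9.66. RPL26, RPL23A and RPL32 encode proteins of the large ribosomal subunit, and these were 3 of the 13 ribosomal protein genes with a start in a domain, a pattern noticed after the values were seen. The site in an intron of the pseudogene LSP1P5 near a gap had 16.4 and 16.0 and then 6.63 and 8.70.

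By position, the persistent site at RGMB lay in an exon of the antisense transcript RGMB-AS1, the RPL23A site in an intron of TLCD1 and NEK8, and the RPL26 site between genes. At RGMB the domain (chr5:98103551-98116200) kept its width, with 10400 and 12650 bp in control cells, against 10250 and 12600 bp with CTCF siRNA, while 1 of its 3 sites was persistent.

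Among the strongest lost sites, the one at RFX7 and TEX9 (chr15:56538092-56538723, an intron of TEX9) had fold enrichments of 42.0 and 42.7 in control cells, and 20.2 in replicate 2 of CTCF siRNA. The one at TNS2, a tensin (chr12:53447131-53447750, over a coding exon), had 31.0 and 48.0 and none with CTCF siRNA. The lost site at RGMB (chr5:98103797-98104400) had 27.7 and 48.9 and a peak of 7.69 in replicate 2. A site called lost here could therefore still have a peak in 1 library, as 26 of the 248 lost sites away from gaps did in replicate 2 alone. In the TNS2 domain the widest H3K4me3 region was 6600 and 9300 bp in control cells, against 3200 and 9450 bp with CTCF siRNA, so the libraries of 1 treatment differed more than the treatments.

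Within the domains away from gaps, the 258 sites had a median distance of 1451 bp to the nearest edge, and 35.3% lay within 1000 bp of an edge, beside 31.9% of the domain bp. A start of a protein-coding gene lay within 1000 bp of 46.1% of the sites. Edges were thus not a preferred place in these values. Introns held 126 of the sites, intergenic sequence 57, exons of non-coding transcripts 31, UTRs 29 and coding exons 15. The 10 persistent sites had a median of 2694 bp to the edge and the 248 lost sites 1441 bp, and 1 of the 10 and 90 of the 248 lay within 1000 bp of an edge.

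Sites just outside the domains were counted in the same way. Of the 165 within 5 kb, 9 were persistent (5.45%, interval 2.90 to 10.0%), with 5.45% kept in CTCF siRNA replicate 1 and 15.8% in replicate 2. The 3 shares were 6.20%, 6.57% and 16.1% inside domains and 9.26%, 10.0% and 20.6% over all control sites. Low shares were thus not particular to the inside of domains. A motif match was found at 67.3% of them, against 51.5% of sites inside. In IMR90 control cells, 66.4% of the sites inside domains and 77.6% of those just outside had a peak in both libraries, beside 72.6% of all LNCaP control sites. Of the sites inside domains that IMR90 shared, 58.2% had a peak in both IMR90 CTCF siRNA libraries, beside 62.2% of all shared sites.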

How the data were processed

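Region and peak lists of 16 ChIP-seq libraries were used, 12 of LNCaP and 4 of IMR90, and 4 low-cell IMR90 libraries were left out. Reads were mapped by the authors with Bowtie (hg19), who discarded reads that mapped to several places and duplicates, and called histone regions with PeakRanger and CTCF peaks with MACS2, per library and without pooling. The deposited histone lists carry a score of unstated meaning, used here to rank regions only. For each CTCF peak the authors give a fold enrichment, which is a ratio to local background within a library. The p-value and q-value of each peak were deposited as −log10, and q-values in LNCaP reached 0.0499. Whether an input library was used is not given in the sources used here.

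Lists were intersected with an overlap of at least 1 bp on chromosomes 1 to 22 and X. Genes came from GENCODE on GRCh37, where a start is the 5′ end of any protein-coding transcript of a protein-coding gene, or of any transcript of a non-coding gene. Coordinates count from 1. Per-library values of 2 against 2 libraries were compared by a two-sided exact permutation test, whose smallest p-value is 0.333. Shares of sites carry 95% Wilson intervals. The domains, gene lists and named genes were chosen with earlier results of these data known. Named domains were the 12 widest, those with the start of a luminal transcription factor, an androgen-induced gene, a CTCF or cohesin gene or a writer or eraser of H3K4me3, those with the strongest persistent and lost sites, the 5 lowest and 5 highest relative widths and the 3 with most CTCF sites, with the same ranks away from gaps added later. Scripts were tested on intervals with known answers. The computations used Python 3.11.15, numpy 2.4.6, pandas 2.3.3, scipy 1.17.1 and matplotlib 3.10.9. Some genes that meet this rule are not reported here.

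Same-numbered libraries were checked for shared deviations over the 913 domains. The correlation was -0.159 for H3K27ac cover and 0.043 for CTCF peaks, so the numbers were not taken as pairs.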

Additional observations from a re-analysis of the deposited data

How the results depend on the processing

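Of 73 values under alternatives, 52 were taken as unchanged. Counts had to stay within a set ratio of the main value, tested differences to keep their direction, and other values to stay within the spread. With a minimum width of 4000, 7500 or 10000 bp there were 2616, 142 and 58 domains, of which 2310, 92 and 27 held the start of a protein-coding gene and 563, 53 and 21 a CTCF control site. Merging regions up to 1000 bp apart gave 1514 domains, and asking for a single region of 5000 bp in each control library gave 535. From 1 control library alone there were 583 (without control siRNA replicate 2) or 818 (without replicate 1). The difference in H3K27ac cover turned to -1.08 percentage points at 7500 bp and -2.54 at 10000 bp, with p = 1.00 and 0.667 in the exact permutation test. A CTCF peak in either control library in place of both gave 363 domains with a site, and distances of 1 kb and 10 kb in place of 5 kb gave 29 and 261 domains with a site outside. The share of persistent sites was 22.6% at 10000 bp, 16.4% for a peak in either CTCF siRNA library, and 15.8% of 19 sites with lists of equal length. Leaving out 1 library gave 4.42 to 16.1% persistent sites, the highest without CTCF siRNA replicate 1. It also gave 95.5 to 103% for the relative width, 0.961 to 4.99 percentage points for H3K27ac cover, the lowest without control replicate 2, -270 to -238 domains for CTCF peaks and 280 to 313 domains with a site. Away from assembly gaps, an alternative added after seeing the data, no direction changed. With the replicate block, the exact permutation test over 2 pairs gave p = 0.500, the lowest it can reach, for the 2.98 percentage points of H3K27ac cover and for the fall of CTCF peaks (-254 domains). Crossing the numbers, added later, cannot change the mean difference in H3K27ac cover, so it is no further check of that difference. Depth is unknown from the lists, so a lost peak or a split block may be one that was not called.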
